A study of Homo sapiens with 10 samples.

Results

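Acetylation of lysine 27 on histone H3 (H3K27ac) was compared between H1975 cells that survived prolonged osimertinib and control cells of the same line. H1975 is an established human lung adenocarcinoma cell line with mutant EGFR, and osimertinib is an inhibitor of mutant EGFR. The libraries were chosen by their titles: 3 osimertinib DTP libraries (DTP, drug-tolerant persister) and 3 DMSO libraries, 6 of the 10 in the series. Osimertinib DTP cells were kept in osimertinib at 500 nM for 24 days. DMSO cells grew without drug for 21 days and then received the vehicle for 3 days, so that the control had the vehicle for a shorter time than the persisters had the drug. The labels call the replicates biological triplicates and do not say whether a replicate was a separate culture, so the p-values measure the spread between these libraries. The assay was ChIP-seq, chromatin immunoprecipitation followed by sequencing, on bulk cells, so that a change in the share of cells with the mark and a change of the mark per cell cannot be told apart. Of 11 markers of lung epithelium 10 had a region assigned to them in the annotated table (all but FOXA1), against 7 of 16 markers of blood, endothelial, fibroblast and neuroendocrine cells. That table holds 67387 of the 169637 regions, so a marker without an assigned region there may still have H3K27ac.

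EGFR signals through RAS, RAF, MEK and ERK, the MAPK cascade. ERK switches on genes for cell cycle entry such as CCND1 and also genes that restrain the cascade, among them the phosphatases DUSP4 and DUSP6 and the inhibitors SPRY4 and SPRED2. YAP and TAZ (the product of WWTR1) are coactivators that work with TEAD factors, and the Hippo kinases LATS1 and LATS2 hold them out of the nucleus. H3K27ac is set mainly by the acetyltransferases CREBBP and EP300 and marks active promoters and enhancers, so its level near a gene is read as a mark of regulatory activity there and not as a measure of RNA.

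The sequences of 5 promoters are shown first, because the promoter sums of these genes are among those described below and the letters let a reader see what the windows hold. Each is the 250 bases upstream of the RefSeq start site on the strand of the gene, in the build GRCh38.p14. Capitals mark CCAAT or ATTGG (the NF-Y box on either strand), TTTGAA or TTCAAA (the CHR element of cell cycle promoters) and CTTCCGG (an ETS site). TOP2A, PLK1 and CCNB1 act in mitosis, SPRY4 restrains the MAPK cascade and PIK3IP1 inhibits PI3K.
TOP2A (chr17:40417897-40418146, minus strand): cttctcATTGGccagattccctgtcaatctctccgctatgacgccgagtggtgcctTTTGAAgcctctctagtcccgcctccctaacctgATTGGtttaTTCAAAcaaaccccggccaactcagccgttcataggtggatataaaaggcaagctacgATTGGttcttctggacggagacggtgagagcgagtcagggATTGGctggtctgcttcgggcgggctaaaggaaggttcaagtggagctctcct
PLK1 (chr16:23678639-23678888, plus strand): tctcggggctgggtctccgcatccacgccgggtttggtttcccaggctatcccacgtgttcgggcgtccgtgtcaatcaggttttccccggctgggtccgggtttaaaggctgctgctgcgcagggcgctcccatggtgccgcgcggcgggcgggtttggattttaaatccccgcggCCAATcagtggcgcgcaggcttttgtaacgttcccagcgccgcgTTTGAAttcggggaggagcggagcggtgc
CCNB1 (chr5:69166900-69167149, plus strand): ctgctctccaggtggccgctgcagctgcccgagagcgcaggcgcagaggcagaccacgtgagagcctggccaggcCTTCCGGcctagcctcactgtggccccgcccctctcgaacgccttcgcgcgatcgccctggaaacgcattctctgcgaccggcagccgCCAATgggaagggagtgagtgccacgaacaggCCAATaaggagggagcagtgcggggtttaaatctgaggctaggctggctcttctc
SPRY4 (chr5:142324248-142324497, minus strand): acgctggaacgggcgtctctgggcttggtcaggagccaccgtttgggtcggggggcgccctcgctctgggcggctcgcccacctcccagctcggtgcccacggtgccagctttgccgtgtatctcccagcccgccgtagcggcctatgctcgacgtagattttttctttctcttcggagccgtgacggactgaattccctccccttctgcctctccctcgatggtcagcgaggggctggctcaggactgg
PIK3IP1 (chr22:31292535-31292784, minus strand): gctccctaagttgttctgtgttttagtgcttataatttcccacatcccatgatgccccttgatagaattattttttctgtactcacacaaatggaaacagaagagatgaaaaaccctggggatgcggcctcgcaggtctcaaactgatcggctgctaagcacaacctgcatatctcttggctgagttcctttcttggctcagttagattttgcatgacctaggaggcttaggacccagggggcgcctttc

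A region is one of the 502 bp windows for which the authors deposited read counts in each library. Counts were also summed over all annotated regions of a gene (the gene sum), over its regions within 1 kb of a start site (the promoter sum), over its regions outside all promoter classes (the distal sum), and over loci of 3 or more regions that lay at most 5000 bp apart (stitched loci). Values are CPM, counts per 1000000 of the TMM-scaled total of the same kind of sum, so CPM of a gene sum and of a promoter sum are not on one scale. They are given in order of replicate number. A feature is called higher or lower where edgeR's quasi-likelihood test gave a Benjamini-Hochberg adjusted p under 0.05 over all features of that kind, and folds are log2 values of osimertinib DTP against DMSO with their standard error (SE). Leaving out DMSO replicate 2 or DMSO replicate 3 cost the most calls. Therefore a call of a single gene or locus given below without further remark is one that held with each of the 6 libraries left out in turn.

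At the level of regions, 19930 of 146480 were higher in osimertinib DTP (13.6%) and 18728 were lower (12.8%). Of 15630 gene sums, 1664 were higher (10.6%) and 1809 lower (11.6%). The libraries of the groups did not overlap for 3110 gene sums in the higher and 3280 in the lower direction. These are more than were called, so separate groups at a gene were common. Distal sums changed more often than promoter sums. Of 8141 distal sums 2083 were higher (25.6%) and 2082 lower (25.6%), against 750 higher (6.1%) and 808 lower (6.57%) of 12292 promoter sums. Of 20667 stitched loci 3921 were higher (19%) and 3697 lower (17.9%). The counts of called list members below are to be read beside these shares. Without DMSO replicate 2 the gene sums gave 741 higher and 973 lower, without DMSO replicate 3 they gave 826 and 1037, and promoter sums gave 196 and 300, and 228 and 322.

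The 6 libraries held 8839536 to 10463351 counts over 169637 regions, and Spearman's rho between replicates over regions was 0.870 to 0.898 in DMSO and 0.818 to 0.835 in osimertinib DTP. Osimertinib DTP replicate 2 stood apart from the other 5 libraries. Regions within 1 kb of a start site held 59.8% of its annotated counts and 40.7% to 45.9% of theirs. Its TMM factor at the regions was 0.741, against 0.913 to 1.134 in the others. How promoters compare with the rest of the genome therefore depended on this library and on the scaling. The median log2 fold change of single promoter regions was 0.40 with all libraries and -0.15 without this library. When the factors of the region fit were used for the sums, the median moved from 0.03 to 0.42 for promoter sums and from 0.06 to 0.31 for gene sums. The calls moved with it, to 423 higher and 169 lower promoter sums (71.5% higher in place of 48.1%) and to 1572 higher and 1042 lower gene sums (60.1% in place of 47.9%). For distal sums the share of higher calls was 51% with these factors and 50% without. Promoter calls are therefore changes relative to the median promoter, and those lost with the region factors are named.

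Of 16 output genes of the MAPK cascade with a tested gene sum, 7 had lower H3K27ac in osimertinib DTP, where 11.6% of all gene sums were lower, and 0 had higher. The other 9 did not pass the test. The median was -0.81 against 0.06 over all genes. For distal sums 7 of 11 were lower and 0 higher (median -1.49). For promoter sums 10 of 16 were lower and 0 higher (median -0.90). Without DMSO replicate 2, DMSO replicate 3 or osimertinib DTP replicate 1 the promoter count was 6 lower. With the region factors it was 2 lower and the median -0.41, while the distal count stayed at 7. The genes of the list took 2003, 1980 and 2146 CPM of the unscaled promoter counts in DMSO and 1282, 1381 and 1059 in osimertinib DTP, each library being divided by its own promoter total, and 2616, 3016 and 3035 CPM of the unscaled distal counts against 1517, 1650 and 1359.

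SPRY4 (chromosome 5, 142324021 to 142325089, 2 regions, both at the promoter) had 31.9, 30.0 and 37.3 CPM in DMSO and 3.65, 3.77 and 1.58 CPM in osimertinib DTP, which is -3.43 on the log2 scale (SE 0.36, adjusted p = 0.000904). The lowest DMSO library lay far above the highest persister library. One of its regions covered the whole printed promoter window and changed by -3.45. DUSP4, a phosphatase that inactivates ERK, had 216, 212 and 225 CPM in DMSO against 68.6, 63.9 and 36.1 CPM over 10 regions, a change of -1.95 (SE 0.26, adjusted p = 0.00164), and 6 of its regions were called lower. Its promoter sum changed by -1.76 and its distal sum by -2.16, and the promoter call was lost with the region factors. FOSL1, an AP-1 subunit made in response to ERK, had 219.6, 205 and 251 CPM against 96.4, 88.6 and 83.0 CPM (-1.33, SE 0.20, adjusted p = 0.0021). CCND1, which encodes cyclin D1, had 103, 84.0 and 100.2 CPM against 33.9, 42.2 and 24.7 CPM (-1.51, SE 0.23, adjusted p = 0.00243), and this call was lost with the region factors. At none of these genes did the groups overlap, as at 3280 of all 15630 gene sums in this direction. The remaining called genes of the list were SPRED2, PHLDA1 and ETV5, named here after their values were seen. SPRED2 changed by -1.48 with 11 of 20 regions lower, PHLDA1 by -1.53 with 20 of 28 regions lower, and ETV5 by -0.88 (adjusted p = 0.0362). The call of ETV5 was lost without DMSO replicate 1, 2 or 3 or osimertinib DTP replicate 1, which left 6 lower genes in the list, and also with the region factors. DUSP6, also named after its values were seen, was not called on the gene sum (-0.88, adjusted p = 0.0837) and was lower at its promoter, with 72.6, 47.4 and 76.6 CPM in DMSO against 20.8, 7.15 and 5.7 CPM (-2.55, SE 0.46, adjusted p = 0.0085).

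**Figure D1:**
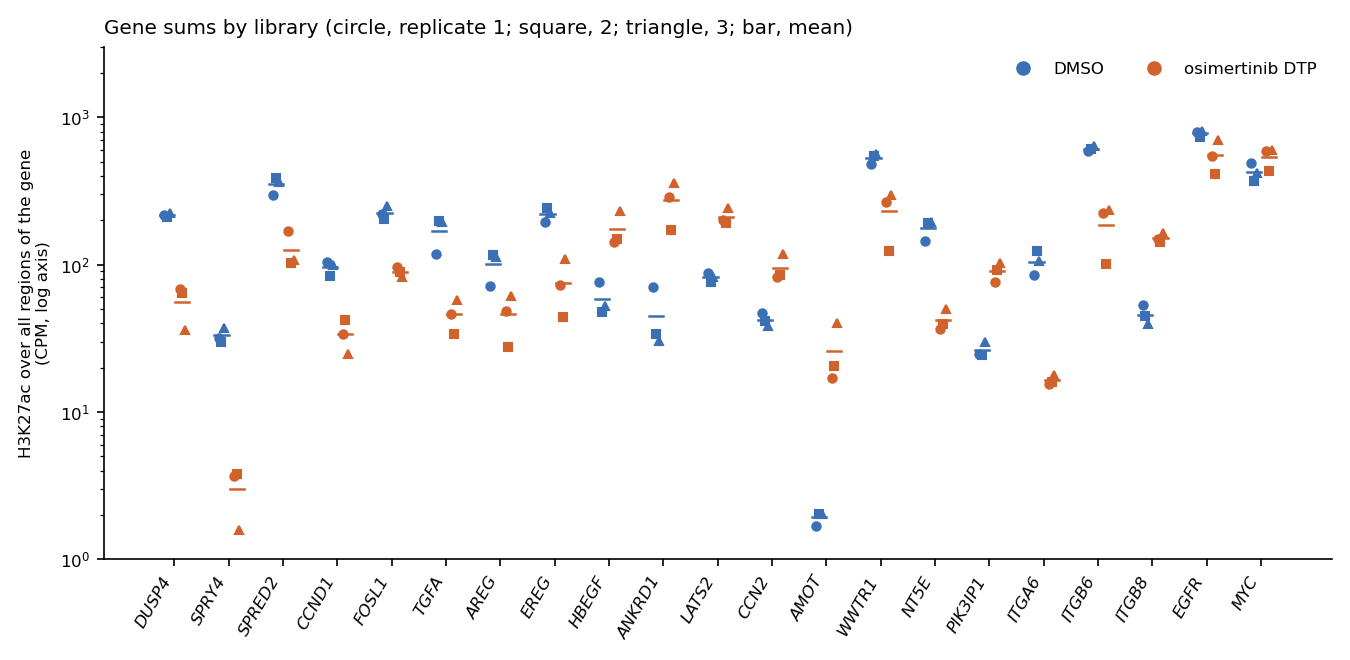
Gene sums in CPM (log axis) of genes of the MAPK, ERBB, YAP and TAZ, Hippo, FOXO and integrin lists and of MYC in the 3 DMSO (blue) and 3 osimertinib DTP (orange) libraries, with a marker per replicate and a bar at the mean of the group. SPRY4 fell from between 30.0 and 37.3 CPM to between 1.58 and 3.77 CPM, ANKRD1 rose from between 30.5 and 70.2 CPM to between 171 and 360.2 CPM, and the libraries of MYC overlapped.

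The ligands of the ERBB receptors did not move together. Of 12 genes of the list 2 were higher and 5 lower (median -0.80), with 3 lower without DMSO replicate 2. Over all gene sums 10.6% were higher and 11.6% lower. TGFA, a ligand of EGFR, had 118, 197 and 196 CPM in DMSO and 46.4, 34.0 and 57.7 CPM in osimertinib DTP (-1.89, SE 0.28, adjusted p = 0.00216). EREG, which encodes the ligand epiregulin, had 196, 243 and 224 CPM against 72.6, 44.2 and 109.8 CPM (-1.55, SE 0.31, adjusted p = 0.00762), and 13 of its 15 regions were lower and 0 higher. The groups were separate at both genes. HBEGF, another EGFR ligand, went the other way: 75.8, 48.0 and 52.1 CPM in DMSO against 143, 150.2 and 232 CPM (1.58, SE 0.27, adjusted p = 0.00391), with 9 of 11 regions higher. BTC, the gene of betacellulin, had a lower gene sum (-1.12, adjusted p = 0.00752), which missed the threshold without DMSO replicate 2 (adjusted p = 0.0522) and with the region factors. Its distal sum fell in every fit, from 86.0, 127 and 108 CPM to 37.4, 26.3 and 26.1 CPM (-1.84, SE 0.29, adjusted p = 0.000366). NRG2, a neuregulin, was lower in its 1 distal region, with 5.92, 8.14 and 6.29 CPM against 0.456, 0.443 and 1.23 CPM (-3.29, SE 0.52, adjusted p = 0.00248).

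Among the receptors, EGFR itself did not pass the test over all its regions. It had 798, 736 and 810.0 CPM in DMSO and 549, 411 and 699 CPM in osimertinib DTP over 34 regions (chromosome 7, 54969638 to 55212480), which is -0.50 on the log2 scale (SE 0.27, adjusted p = 0.214), with 1 region higher and 12 lower. The groups did not overlap, as at 3280 of all 15630 gene sums in this direction. Its promoter sum was lower, with 328, 289 and 333 CPM against 181, 203 and 207 CPM (-0.69, SE 0.15, adjusted p = 0.0195). That call was lost with the region factors and without DMSO replicate 1, 2 or 3 or osimertinib DTP replicate 1 (adjusted p up to 0.0949). ERBB2 changed by 0.45 (adjusted p = 0.244) and ERBB3 by 0.17 (adjusted p = 0.828), with overlapping libraries. ERBB4 was higher in its 1 region, an intronic or intergenic one with 3 reads in each DMSO library and 51, 41 and 65 reads in osimertinib DTP (4.19, SE 0.56, adjusted p = 0.00161). MYC had 487, 371 and 421 CPM against 595, 430.4 and 596 CPM, which overlapped (0.34, SE 0.25, adjusted p = 0.364).

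Receptors and ligands outside the ERBB family that can bypass EGFR were called in both directions, 4 higher and 4 lower of 17, where 10.6% and 11.6% of all gene sums were. There was 1 higher without DMSO replicate 2 or osimertinib DTP replicate 1, and 2 were lower without DMSO replicate 2 or 3. GAS6, the ligand of AXL, rose at its promoter from 8.61, 4.87 and 4.61 CPM to 40.2, 58.6 and 41.1 CPM (2.95, SE 0.34, adjusted p = 0.0027), and its gene sum rose by 1.08 (adjusted p = 0.00605). AXL itself had 140.1, 132 and 151 CPM in DMSO and 80.9, 86.4 and 106 CPM in osimertinib DTP (-0.63, SE 0.20, adjusted p = 0.0465), a call lost without DMSO replicate 1, 2 or 3 or osimertinib DTP replicate 1 (adjusted p up to 0.19) and with the region factors. The receptor tyrosine kinase genes ALK and NTRK2 fell. ALK had 15.5, 24.5 and 12.4 CPM against 3.5, 1.44 and 2.28 CPM (-2.88, SE 0.45, adjusted p = 0.00248), and NTRK2 had 84.4, 129 and 118 CPM against 35.9, 11.3 and 22.3 CPM (-2.26, SE 0.38, adjusted p = 0.00336) with all 5 regions lower. The fibroblast marker PDGFRB had 109.7, 29.0 and 43.4 CPM against 249.9, 161 and 190.5 CPM (1.72, SE 0.44, adjusted p = 0.0211), a call lost without DMSO replicate 2, DMSO replicate 3 or osimertinib DTP replicate 1 (adjusted p up to 0.0802). Over the list of markers of other cell types 1 of 10 tested gene sums was higher and 1 lower, and none was called without DMSO replicate 3. MET, named after its values were seen, had overlapping libraries (578, 712 and 657 CPM against 293, 277 and 682 CPM).

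Targets of YAP and TAZ were called higher more often than lower. Of 21 gene sums 7 were higher and 4 lower (median 0.58), where 10.6% of all gene sums were higher and 11.6% lower. The lower share of the list, 19.0%, thus also lay above that of all gene sums. Of 20 distal sums 12 were higher and 3 lower (median 0.81), where 25.6% of all were called each way. Of 21 promoter sums 6 were higher and 3 lower (median 0.55, where 6.1% of all were higher), with 1 higher without DMSO replicate 2, 10 higher without osimertinib DTP replicate 2, and 3 higher and 0 lower with the region factors. With a library left out, 4 (without DMSO replicate 2 or 3) to 12 gene sums and 9 (without DMSO replicate 3) to 12 distal sums were higher, and 2 gene sums were lower without DMSO replicate 2 or 3. The list took 7719, 7112 and 7105 CPM of the unscaled distal counts in DMSO and 10180, 8901 and 11170 in osimertinib DTP, 37.9% more, and its share of promoter counts was 32.9% higher. Its share of gene counts overlapped between the groups, with 5240, 4949 and 4862 CPM in DMSO and 6840, 5188 and 8131 in osimertinib DTP.

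ANKRD1, a transcriptional cofactor that is among the classical YAP targets, had 70.2, 34.0 and 30.5 CPM in DMSO and 288, 171 and 360.2 CPM in osimertinib DTP (2.60, SE 0.39, adjusted p = 0.00219). The rise ran along the gene and its surroundings (chromosome 10, 90912334 to 90970064), where 15 of 17 regions were higher and 0 lower. LATS2, a Hippo kinase gene that YAP itself induces, had 88.1, 76.5 and 82.7 CPM against 202, 191 and 243 CPM (1.36, SE 0.20, adjusted p = 0.00205), with 12 of 16 regions higher. Its distal sum changed by 1.63. CCN2, which encodes a matricellular protein, had 47.2, 41.4 and 38.4 CPM against 81.8, 85.7 and 119 CPM (1.17, SE 0.21, adjusted p = 0.00479), and FJX1 had 83.7, 98.5 and 98.8 CPM against 183, 160.2 and 267 CPM (1.12, SE 0.24, adjusted p = 0.00995). The groups were separate at all 4. CCN1, named after its values were seen, was not called on the gene sum (0.73, adjusted p = 0.0833) and was higher in the distal sum, with 275, 331 and 279 CPM against 495, 507 and 649 CPM (0.90, SE 0.19, adjusted p = 0.00216). Not all targets rose. NT5E, the gene of the surface enzyme CD73, had 144, 191 and 196 CPM in DMSO against 36.8, 39.5 and 49.8 CPM (-2.08, SE 0.22, adjusted p = 0.000943), with 8 of 10 regions lower. DOCK5, an activator of RAC, had 215, 244 and 212 CPM against 119.5, 73.1 and 88.9 CPM (-1.25, SE 0.23, adjusted p = 0.00529).

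Among the genes of the Hippo pathway itself 6 of 21 were higher and 1 lower (median 0.45), where 10.6% and 11.6% of all gene sums were. Without DMSO replicate 2 the counts were 2 higher and 0 lower. AMOT, whose product holds YAP in the cytoplasm, had 1.69, 2.03 and 2.04 CPM in DMSO and 16.9, 20.4 and 40.0 CPM in osimertinib DTP (3.73, SE 0.43, adjusted p = 0.00107), and all 4 of its regions on chromosome X were higher. The member that was lower was WWTR1, the gene of TAZ. Its gene sum had 484, 543 and 568 CPM against 265, 124 and 299 CPM (-1.21, SE 0.33, adjusted p = 0.026), a call lost without DMSO replicate 2, DMSO replicate 3 or osimertinib DTP replicate 1 (adjusted p up to 0.0895). Its distal sum was lower in every such fit (-1.38, SE 0.22, adjusted p = 0.000369), while the promoter sum did not pass the test (-0.49, adjusted p = 0.352). Of its 25 regions 17 were lower and 4 higher, from -3.40 to 2.78. YAP1 and TEAD1, named after their values were seen, changed by -0.13 (adjusted p = 0.755) and 0.11 (adjusted p = 0.797) with overlapping libraries.

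**Figure D2:**
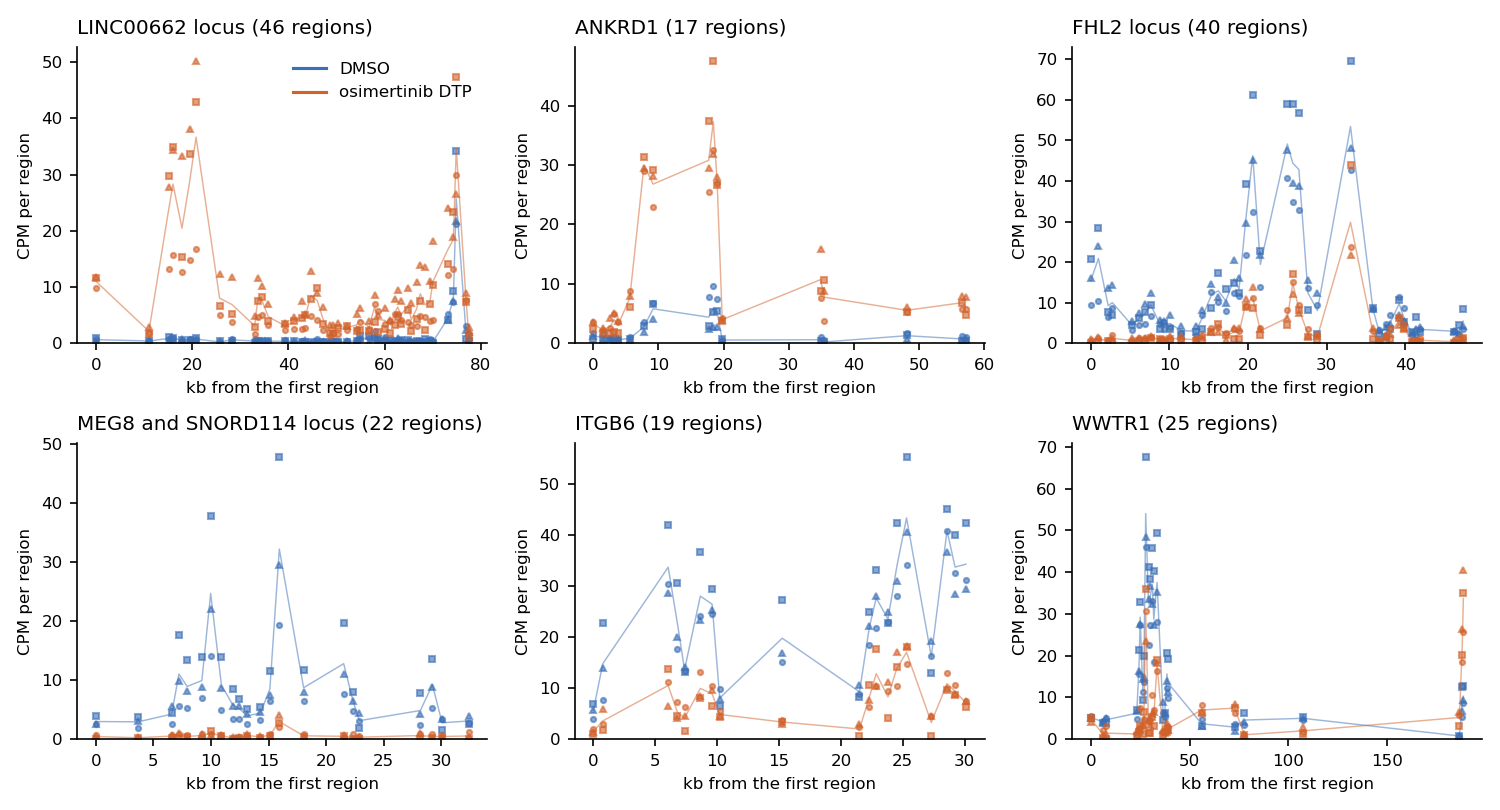
CPM of single regions (points, a marker per replicate; lines join the group means) against the distance in kb from the first region of the locus, for 6 loci in DMSO (blue) and osimertinib DTP (orange). In the LINC00662 locus 44 of 46 tested regions were higher, in the MEG8 and SNORD114 locus 22 of 22 were lower, and WWTR1 held regions of both directions, 4 higher and 17 lower of 25.

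Genes of the cell cycle and DNA replication had 16 of 27 promoter sums called lower, where 6.57% of all promoter sums were lower, a result that depended on the scaling. Of 27 gene sums 13 were lower and 1 higher (median -0.81), with 7 (without DMSO replicate 2) to 16 lower when a library was left out. No promoter sum was higher (median -1.12), and 8 (without DMSO replicate 2) to 19 were lower with a library left out. With the region factors 0 promoter sums were called and the median was -0.58, where that of all promoter sums was 0.42. The promoters of the list held 2723, 3066 and 3131 CPM of the unscaled promoter counts in DMSO and 1707, 1767 and 1412 in osimertinib DTP, and the groups were separate in this share, in which each library is divided by its own promoter total.

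TOP2A, the topoisomerase of mitotic chromosomes, had 158, 177 and 194 CPM at its promoter in DMSO and 57.1, 47.2 and 46.0 CPM in osimertinib DTP (-1.81, SE 0.16, adjusted p = 0.00222). PLK1, a mitotic kinase, had 129, 120.0 and 144 CPM against 50.5, 42.1 and 51.3 CPM (-1.46, SE 0.17, adjusted p = 0.00269). CCNB1, the gene of cyclin B1, had 106, 93.4 and 118 CPM against 45.8, 36.4 and 39.1 CPM (-1.39, SE 0.18, adjusted p = 0.00307). These promoters and that of the replication helicase gene MCM5 (-1.48, adjusted p = 0.00298) were separate between the groups in all 6 libraries, and all 4 promoter calls were lost with the region factors (adjusted p from 0.111 to 0.397). The gene sum of TOP2A, with 72.3, 78.3 and 86.0 CPM against 26.3, 25.6 and 19.8 CPM, was called with both scalings (-1.72, SE 0.20, adjusted p = 0.00108). MKI67, named after its values were seen, had 107, 113 and 123 CPM at its promoter against 31.3, 42.9 and 13.9 CPM (-1.93, SE 0.33, adjusted p = 0.00701), a call also lost with the region factors.

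Distal sums of this list could be tested for 7 genes, of which 4 were higher (3 without DMSO replicate 2) and 1 lower (median 0.94), where 25.6% of all distal sums were higher. Summed over these 7 genes the distal counts went the other way, with 1245, 1600 and 1597 CPM of the unscaled distal counts in DMSO and 1029, 1107 and 1327 in osimertinib DTP, and the groups overlapped. CCNE1, the gene of cyclin E1, was the member whose gene sum was higher, with 33.5, 42.9 and 40.9 CPM in DMSO and 86.7, 77.1 and 70.9 CPM in osimertinib DTP (1.00, SE 0.19, adjusted p = 0.00594). The rise lay in its distal sum (1.504, SE 0.26, adjusted p = 0.000671), and its promoter sum did not pass the test (-0.42, adjusted p = 0.542). The call of the gene sum was lost when it was limited to regions within 10 kb of the start site or to the region with the highest total. MCM2, a subunit of the replicative helicase, moved in opposite directions: its promoter had 71.4, 90.7 and 88.0 CPM against 30.3, 47.4 and 31.4 CPM (-1.18, adjusted p = 0.0112), and its distal sum had 22.2, 6.1 and 9.08 CPM against 51.5, 37.9 and 56.9 CPM (1.98, adjusted p = 0.00375). The promoter call was lost with the region factors and without DMSO replicate 2 or 3 (adjusted p up to 0.0691). The lower distal sum was that of CDK6, named after its values were seen (-0.96, adjusted p = 0.00517).

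**Figure D3:**
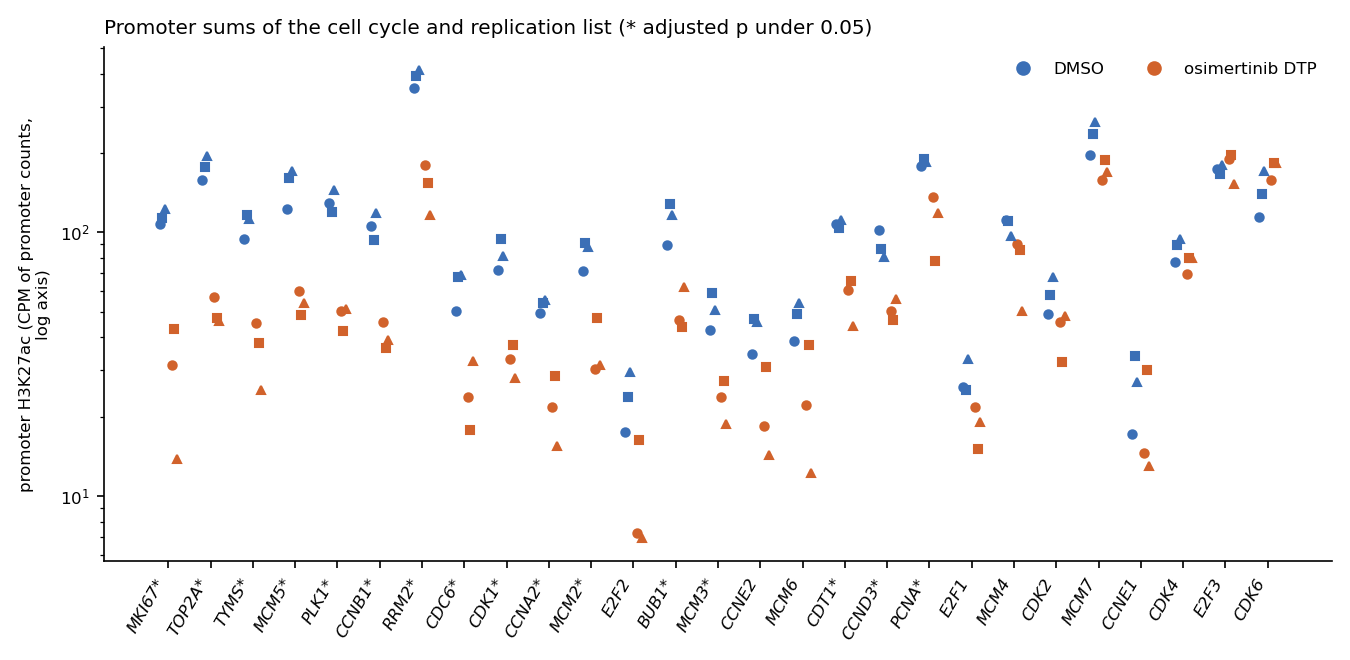
Promoter sums in CPM of promoter counts (log axis) of the 27 genes of the cell cycle and replication list in DMSO (blue) and osimertinib DTP (orange), a marker per replicate, sorted by log2 fold change; an asterisk marks the 16 called lower. From MKI67 at -1.93 the differences narrow towards the right, where the libraries of E2F3 and CDK6 overlap.

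The TOP2A window was overlapped at its ends by regions that changed by -1.43 (adjusted p = 0.0295) and -1.42 (adjusted p = 0.021), while the regions that reached into the PLK1 and CCNB1 windows were not called singly. No tested region overlapped the PIK3IP1 window. The printed windows carry the motif letters unevenly, with 4 NF-Y boxes in that of TOP2A and 1 in that of PLK1. Among 9432 tested promoter sums with a RefSeq window the NF-Y box was present in 35.0%, in 31.1% of the 560 higher and in 40.4% of the 606 lower ones, and in 11 of the 15 lower promoters of the cell cycle list. The CHR letters were present in 8.62% of the tested, 8.04% of the higher and 15.7% of the lower promoters, and in 4 of those 15. The AP-1 letters TGANTCA were present in 4.30%, 3.75% and 7.43%, and the TEAD letters GGAATG in 9.64%, 12.5% and 10.7%, each counted on both strands. The letters of ETS (CCGGAAG) were present in 15.9%, 7.14% and 9.90%, of E2F (GGCGGGAA) in 4.56%, 3.57% and 5.45%, of FOXO (GTAAACA) in 1.82%, 2.86% and 1.49%, and of the CLEAR element (TCACGTGA) in 1.70%, 1.43% and 0.825%. Over all 27305 RefSeq windows these shares were 33.0% (NF-Y), 13.6% (CHR), 6.60% (AP-1), 11.9% (TEAD), 8.82% (ETS), 2.77% (E2F), 2.98% (FOXO) and 0.890% (CLEAR). A match of letters is a description of the window and not a site of binding, and cell cycle genes are among those counted as lower.

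Of 19 CDK inhibitor and p53 target genes 4 were higher and 1 lower (median 0.38), where 10.6% of all gene sums were higher, and all 5 calls of gene sums held with each library left out. Promoter sums were less stable, with 4 of 19 higher and 1 lower, where 6.1% and 6.57% of all promoter sums were. Without DMSO replicate 2 the list had 0 higher, and over all genes the higher promoter sums went from 750 to 196. The higher gene sums were those of BTG2, an antiproliferative cofactor (1.22, adjusted p = 0.00989), SESN2, a stress-induced inhibitor of mTORC1 signalling (1.15, adjusted p = 0.00451), TP53INP1 (2.33, adjusted p = 0.00557) and ZMAT3 (1.53, adjusted p = 0.00417), the last 2 being p53 targets. SESN2 had 31.6, 34.4 and 35.4 CPM in DMSO and 58.7, 82.5 and 83.7 CPM in osimertinib DTP, and ZMAT3 had 30.7, 16.998 and 16.8 CPM against 67.7, 60.4 and 57.9 CPM. The groups were separate at both. The lower gene sum was that of CDKN2D, an inhibitor of CDK4 and CDK6, with 54.0, 48.6 and 45.6 CPM against 27.4, 22.3 and 16.1 CPM (-1.17, SE 0.24, adjusted p = 0.00769), a call lost with the region factors. CDKN1A, the best known p53 target, was named after its values were seen and had overlapping libraries (0.15, adjusted p = 0.661).

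Of 18 apoptosis regulators 5 were higher and 2 lower (median 0.32), where 10.6% and 11.6% of all gene sums were. Without DMSO replicate 2 or 3 the counts were 2 higher and 0 lower. Of 14 promoter sums 1 was higher, where 6.1% of all promoter sums were. In distal sums 7 of 13 were higher and 3 lower (median 1.197), where 25.6% of all distal sums were called each way. BOK, a pro-apoptotic member of the BCL2 family, had 6.34, 4.19 and 7.08 CPM in DMSO and 39.7, 54.1 and 31.7 CPM in osimertinib DTP (2.84, SE 0.32, adjusted p = 0.00106), in 3 distal regions. HRK, which encodes a BH3-only protein that binds BCL2 and BCL-XL, had 15.9, 13.4 and 11.6 CPM against 49.4, 48.5 and 54.2 CPM (1.89, SE 0.22, adjusted p = 0.00107), with all 4 regions higher. Both genes promote cell death, and their groups were far apart. The anti-apoptotic gene BCL2 rose in its distal sum as well, from 23.8, 11.5 and 4.86 CPM to 67.0, 50.9 and 41.5 CPM (1.99, SE 0.49, adjusted p = 0.00496). PMAIP1, the BH3-only gene NOXA, fell in its distal sum from 407, 502 and 468 CPM to 259, 216 and 249 CPM (-0.93, SE 0.19, adjusted p = 0.00162). BCL2L11, the gene of BIM, named after its values were seen, had 73.4, 68.9 and 75.5 CPM against 90.8, 115 and 98.0 CPM and did not pass the test (0.48, adjusted p = 0.0935).

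In the list of FOXO targets and the insulin axis 4 of 19 gene sums were higher and 0 lower (median 0.24), with 1 higher without DMSO replicate 2. Over all gene sums 10.6% were higher and 11.6% lower. PIK3IP1, an inhibitor of PI3K, had 24.7, 24.4 and 29.7 CPM in DMSO and 75.7, 92.5 and 103 CPM in osimertinib DTP (1.78, SE 0.20, adjusted p = 0.00107). Its promoter sum rose from 32.0, 21.1 and 29.8 CPM to 129.9, 136 and 146 CPM (2.32, SE 0.20, adjusted p = 0.00222), with both scalings and in every fit with a library left out. No tested region overlapped its printed window, so the printed letters do not show where this rise lay. PIK3CA, the catalytic subunit that PIK3IP1 restrains, rose in its distal sum from 1.25, 0.732 and 1.62 CPM to 33.3, 9.74 and 30.5 CPM (4.35, SE 0.59, adjusted p = 0.000142). The DMSO values of this distal sum were low. The call of the PIK3CA gene sum, unlike that of the distal sum, did not hold with each library left out. The genes of sterol and fatty acid synthesis leaned the other way, with 4 of 21 lower and 0 higher (median -0.27), where 11.6% of all gene sums were lower. The count was 1 lower without DMSO replicate 2, and 0 with the region factors. SCD, a fatty acid desaturase, had 88.2, 87.6 and 104 CPM against 43.7, 36.4 and 30.2 CPM (-1.34, SE 0.21, adjusted p = 0.00226), a call lost with the region factors. The list took 2658, 2743 and 2805 CPM of the unscaled promoter counts in DMSO and 2217, 2126 and 1896 in osimertinib DTP.

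**Figure D4:**
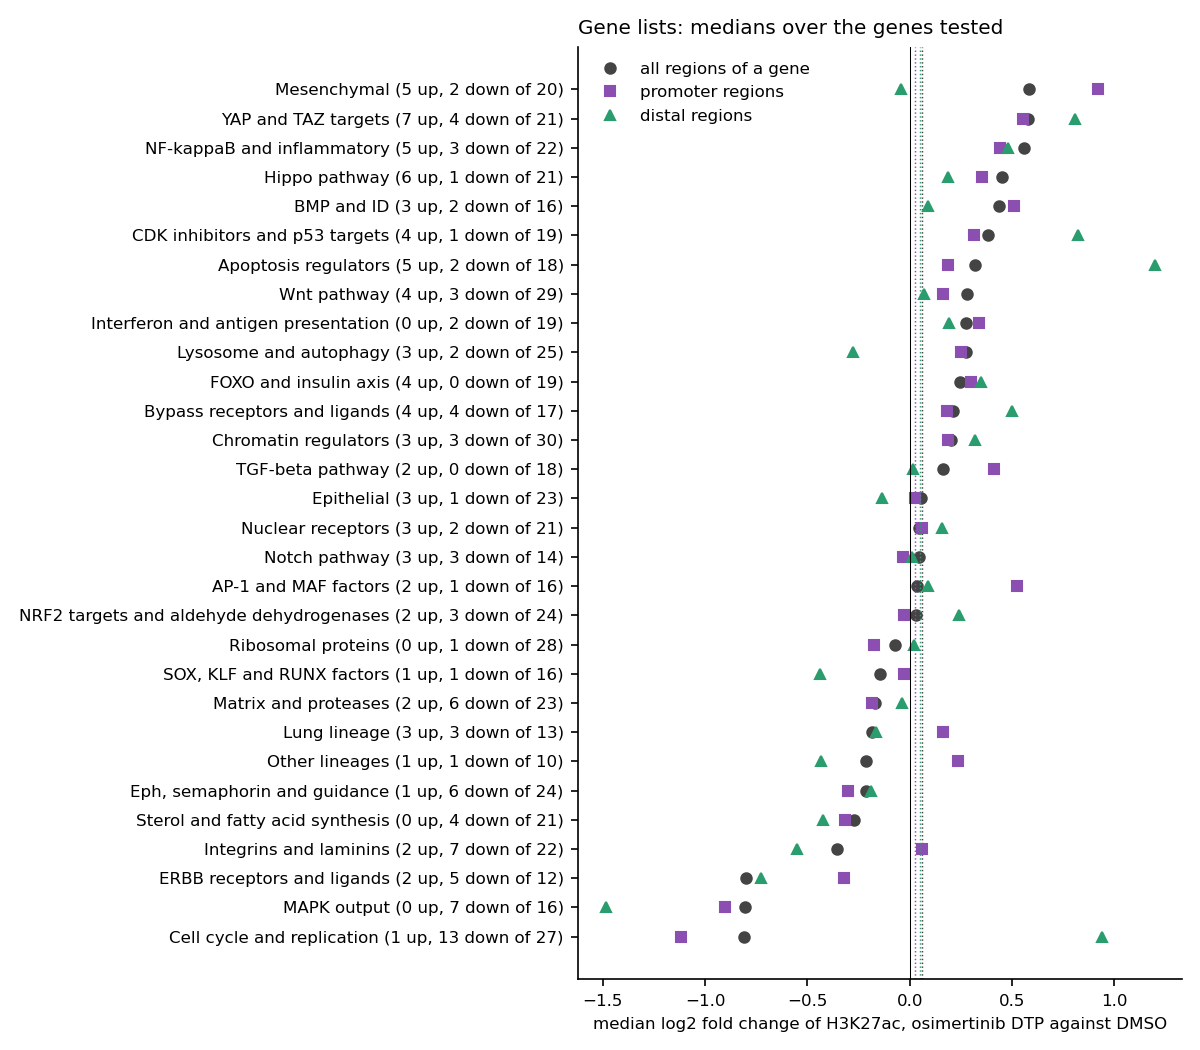
Median log2 fold change over the tested members of each of 30 gene lists for gene sums (circles), promoter sums (squares) and distal sums (triangles), with the counts of gene sums called; dotted lines give the medians of all gene, promoter and distal sums at 0.06, 0.03 and 0.05. The cell cycle list lies at -1.12 for promoter sums and at 0.94 for distal sums, and the MAPK list lies at or below -0.81 in all 3.

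Integrins and laminins, the receptors and ligands of epithelial attachment to the basement membrane, were called lower more often than higher. Of 22 gene sums 7 were lower and 2 higher (median -0.36), where 11.6% and 10.6% of all gene sums were. Without any 1 of the DMSO libraries 1 was higher, and 5 were lower without DMSO replicate 2 or 3. In distal sums 9 of 18 were lower and 4 higher (median -0.55), where 25.6% of all were called each way. There 7 were lower without any 1 of the DMSO libraries and 2 higher without DMSO replicate 2. Promoter sums had a median of 0.06, with 4 of 20 lower and 2 higher, where 6.57% and 6.1% of all were. The share of promoter counts was 4.95% less, and the groups overlapped in it. The list took 4924, 5112 and 4837 CPM of the unscaled distal counts in DMSO and 3085, 2781 and 2775 in osimertinib DTP, 41.9% less. ITGA6, the integrin alpha-6 of hemidesmosomes, had 84.8, 124 and 105 CPM in DMSO and 15.5, 16.1 and 17.7 CPM in osimertinib DTP (-2.67, SE 0.22, adjusted p = 0.000695), with 5 of 6 regions lower. ITGB6 forms with integrin alpha-v an epithelial receptor that activates latent TGF-beta. It had 591, 613 and 637 CPM against 223, 101 and 235 CPM (-1.72, SE 0.33, adjusted p = 0.00574), and 17 of its 19 regions (chromosome 2, 160199042 to 160229639) were lower. ITGB8, which shares the partner alpha-v and the ligand, rose from 52.9, 44.9 and 39.5 CPM to 149, 142 and 165 CPM (1.73, SE 0.20, adjusted p = 0.00107) in all 6 regions, with both scalings. LAMA4, a laminin chain of vessel basement membranes, had 214, 248 and 209 CPM against 79.1, 23.3 and 52.6 CPM (-2.12, SE 0.38, adjusted p = 0.00479), all 7 regions being lower. LAMB3, a chain of laminin-332, was named after its values were seen and changed by -1.57 (adjusted p = 0.0103).

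Among matrix genes and proteases 6 of 23 were lower and 2 higher (median -0.17), where 11.6% and 10.6% of all gene sums were. The counts were 3 lower without DMSO replicate 2 or 3 and 0 higher without DMSO replicate 2. HAS2, a hyaluronan synthase, had 57.4, 85.8 and 80.5 CPM in DMSO and 15.4, 11.4 and 12.3 CPM in osimertinib DTP (-2.52, SE 0.24, adjusted p = 0.000785). ADAM19, a sheddase, had 200.3, 210.4 and 209 CPM against 63.0, 31.6 and 63.7 CPM (-1.97, SE 0.28, adjusted p = 0.00191), and COL7A1, the collagen of anchoring fibrils, had 234, 167 and 188 CPM against 84.0, 87.6 and 76.3 CPM (-1.25, SE 0.21, adjusted p = 0.00326). The groups were separate at each.

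Of 23 epithelial gene sums 3 were higher and 1 lower, where 10.6% and 11.6% of all gene sums were. Without DMSO replicate 2 the counts were 1 higher and 0 lower. Of 16 epithelial distal sums 4 were higher and 5 lower, where 25.6% of all distal sums were called each way. CLDN1, a tight junction protein, rose at its promoter from 6.46, 4.06 and 5.67 CPM to 33.6, 50.3 and 56.6 CPM (3.12, SE 0.33, adjusted p = 0.00265), with both scalings. CDH1, the gene of E-cadherin, fell in its distal sum from 534, 788 and 874 CPM to 308, 277 and 381 CPM (-1.18, SE 0.22, adjusted p = 0.000981), while its promoter sum, 72.6, 102 and 131 CPM against 67.9, 107 and 121 CPM, overlapped. Further epithelial genes with a lower distal sum, EPCAM (-1.44), GRHL2 (-1.48) and CLDN3 (-2.02), and KRT18 with a higher one (0.88), were named after their values were seen. Of 20 mesenchymal gene sums 5 were higher and 2 lower (median 0.58), where 10.6% and 11.6% of all gene sums were. The counts were 2 higher and 1 lower without DMSO replicate 2 or 3, and 10 higher without DMSO replicate 1. Of 16 mesenchymal promoter sums 4 were higher and 0 lower (median 0.92), where 6.1% of all promoter sums were higher. The count was 1 higher without DMSO replicate 2 or 3 and 9 without DMSO replicate 1. Their share of promoter counts was 1276, 953 and 790 CPM of the unscaled promoter counts in DMSO and 1669, 1573 and 1759 in osimertinib DTP, 65.6% more, with the groups separate. Of 11 mesenchymal distal sums 2 were higher and 3 lower, where 25.6% of all distal sums were called each way. TAGLN, an actin-binding protein of contractile cells, had 14.5, 5.51 and 4.09 CPM in DMSO and 57.2, 58.0 and 53.3 CPM in osimertinib DTP (2.80, SE 0.42, adjusted p = 0.00216), THBS1 rose by 1.285 (adjusted p = 0.0028), and the mesenchymal factor PRRX1 fell by 2.08 on the log2 scale (adjusted p = 0.00278). VIM, named after its values were seen, did not pass the test (0.64, adjusted p = 0.312). Of 13 genes of the lung lineage 3 were higher and 3 lower, where 10.6% and 11.6% of all gene sums were, with 0 higher without DMSO replicate 2. FOXA2, a factor of airway and alveolar cells, had 45.0, 50.9 and 78.5 CPM against 18.3, 5.99 and 4.91 CPM (-2.58, SE 0.47, adjusted p = 0.00497), with all 4 regions lower, and the mucin gene MUC5AC fell from 60.6, 110.5 and 114 CPM to 21.3, 34.1 and 23.5 CPM (-1.85, SE 0.30, adjusted p = 0.00275).

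Regulators of transcription and of chromatin were called at no more than the 22.2% at which all gene sums were called in either direction. Of 16 AP-1 and MAF genes 2 were higher and 1 lower. ATF3, a stress-induced factor, had 70.9, 75.5 and 63.9 CPM in DMSO and 133, 208 and 209 CPM in osimertinib DTP (1.39, SE 0.23, adjusted p = 0.00342), and MAF had 3.38, 3.59 and 3.3 CPM against 13.1, 35.5 and 22.6 CPM (2.79, SE 0.41, adjusted p = 0.00206). The lower one was FOSL1, described above. Of 16 SOX, KLF and RUNX genes SOX4 was higher, with 92.9, 83.4 and 98.1 CPM against 171, 213 and 214 CPM (1.12, SE 0.20, adjusted p = 0.00444), and RUNX3 was lower, with 78.4, 47.4 and 50.6 CPM against 16.6, 14.3 and 15.6 CPM (-1.92, SE 0.25, adjusted p = 0.00157). Of 30 chromatin regulators 3 were higher and 3 lower. CREBBP, an acetyltransferase that sets H3K27ac, had 41.2, 28.1 and 32.2 CPM against 82.1, 68.1 and 124 CPM (1.43, SE 0.27, adjusted p = 0.00526), and the deacetylase gene HDAC4 had 171, 167 and 197 CPM against 83.2, 62.0 and 49.8 CPM (-1.46, SE 0.23, adjusted p = 0.0028).

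In the Wnt list 4 of 29 gene sums were higher (13.8%) and 3 lower (10.3%), where 10.6% and 11.6% of all gene sums were. Without DMSO replicate 2 the Wnt list had 1 lower. LGR5, a receptor of R-spondins known from stem cells of the gut, had 4.93, 4.91 and 3.93 CPM in DMSO and 59.8, 54.3 and 140.1 CPM in osimertinib DTP (4.19, SE 0.41, adjusted p = 0.000785), with all 5 regions higher. WNT5A rose by 2.37 (adjusted p = 0.00579) and WNT7B fell by 1.22 on the log2 scale (adjusted p = 0.00512). In the Notch list 3 of 14 were higher and 3 lower (21.4% each way), with 0 higher without DMSO replicate 2 or 3. NOTCH3 changed by -2.94 in its 1 region (adjusted p = 0.00193). In the NF-kappaB list 5 of 22 were higher (22.7%) and 3 lower (13.6%), with 0 higher and 1 lower without DMSO replicate 2. The chemokine gene CCL20 fell (-1.42, adjusted p = 0.00639), and in distal sums NFKBIZ, a nuclear regulator of NF-kappaB, rose by 2.49 (adjusted p = 0.00012) while TNFAIP3, a brake on the pathway, fell by 3.59 on the log2 scale (adjusted p = 0.000228). Of 24 NRF2 targets and aldehyde dehydrogenases 2 were higher (8.33%), among them ALDH1B1 (1.49, adjusted p = 0.00245), and 3 were lower (12.5%), among them AKR1B10 (-2.64, adjusted p = 0.00219). Without DMSO replicate 2 or 3 the counts were 1 and 1. AKR1B10, an aldo-keto reductase, had 82.6, 154 and 167 CPM against 23.7, 11.1 and 30.5 CPM.

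For the remaining lists the shares called were near those of all gene sums (10.6% higher, 11.6% lower) or rested on single libraries. Of 18 genes of the TGF-beta pathway 2 were higher and 0 lower, with 0 higher without DMSO replicate 2 or 3, although SMAD4 rose in its distal sum (4.08, adjusted p = 8.13e-05). Of 16 BMP and ID genes 3 were higher and 2 lower, of 21 nuclear receptors 3 and 2, and without DMSO replicate 2 both lists had 1 higher and 0 lower. Of 25 lysosome and autophagy genes 3 were higher and 2 lower (1 lower without DMSO replicate 2 or 3), and of 24 Eph, semaphorin and guidance genes 1 and 6, with 0 higher and 1 lower without DMSO replicate 2. Of 19 genes of the interferon response and antigen presentation 0 were higher and 2 lower, and without DMSO replicate 2 or 3 none was called. Of 28 ribosomal protein genes 0 were higher and 1 lower (0 without DMSO replicate 2), the median of their promoter sums being -0.17.

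Among called genes with 5 or more regions and separate groups, which the rule required, 12 were named for the largest rise. OR14K1, an olfactory receptor gene, had 5.07, 7.42 and 6.92 CPM in DMSO and 129, 98.0 and 253 CPM in osimertinib DTP (4.62, SE 0.40, adjusted p = 0.000695) over 5 regions, all higher, at chromosome 1, 247741592 to 247747509. KCNMB2, a subunit of a potassium channel, had 15.5, 8.38 and 5.35 CPM against 181, 75.1 and 183 CPM (3.90, SE 0.46, adjusted p = 0.00117), and the ubiquitin ligase gene RNF144B had 10.1, 4.07 and 4.56 CPM against 88.7, 54.7 and 134 CPM (3.88, SE 0.44, adjusted p = 0.00107). At both, every region was higher. C1orf198 (3.75), LINC00662 (3.72), DIRC3 (3.42), TMEM170B (3.14), PAMR1 (3.05), TTC28 (3.04), RIPOR3 (3.03) and DIRC1 (3.01) complete the 12 with LGR5, and for TTC28 13 of 14 regions were higher.

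Among the largest falls, TCERG1L-AS1 had 75.8, 160.2 and 145 CPM in DMSO and 8.06, 4.55 and 17.4 CPM in osimertinib DTP (-3.69, SE 0.48, adjusted p = 0.00157), in 5 distal regions that were all lower. CRYBB3, the gene of a lens crystallin, had 179.6, 179.7 and 212 CPM against 33.6, 13.2 and 24.9 CPM (-3.0003, SE 0.33, adjusted p = 0.00103). CADM2, an adhesion molecule of neurons, had 42.6, 84.0 and 82.6 CPM against 10.6, 2.44 and 13.9 CPM (-2.99, SE 0.53, adjusted p = 0.00452), and HS3ST4, a heparan sulfate sulfotransferase, had 53.4, 76.0 and 71.4 CPM against 12.02, 5.43 and 11.4 CPM (-2.81, SE 0.32, adjusted p = 0.00107). All regions of these 3 genes were lower. The others were LINC00354 (-3.29), LINC01752 (-2.89), LINC02246 (-2.79), SERP2 (-2.71), ITGA6, LINC02347 (-2.67), LINC01152 (-2.66) and AKR1B10. The assignment of a distal region to a gene is that of the deposited annotation, by distance to a start site, and says nothing of which gene the region acts on.

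Stitched loci used all deposited regions, with or without a gene. Of the higher regions 77.4% lay in a stitched locus and 58.9% in one that was itself called higher, and of the lower regions 76.3% and 62.5%. Regions of one locus tended to be called in 1 direction. Of 8689 stitched loci with 5 or more tested regions 5348 held a called region, and 309 of these (5.78%) held called regions of both directions. In 141 every tested region was higher and in 229 every one was lower. Among 4508 genes with 5 or more tested regions 3610 held a called region, of which 830 (23.0%) held both directions, over much longer stretches of the genome.

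Among the largest rises was a locus without an annotated gene at chromosome 19, 27666508 to 27680947, which had 4.05, 4.71 and 5.25 CPM in DMSO and 95.2, 179 and 302 CPM in osimertinib DTP (5.36, SE 0.38, adjusted p = 3.55e-10). A neighbouring locus at 27646587 to 27661123 rose by 4.88. Further along the same chromosome lay a locus of 66 regions assigned to LINC00662 (27709877 to 27801123), chosen after values were seen as the locus with the most regions called higher. It had 79.2, 79.7 and 77.8 CPM against 379, 375 and 764 CPM (2.68, SE 0.26, adjusted p = 2.15e-08), and 44 of its 46 tested regions were higher. Further loci named for their rise were those of TPH2 (5.34), PDE1A (5.18), LINC00907 (4.95) and ZNF431 (4.88) and 1 without a gene on chromosome 1 (4.86).

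The largest falls were a locus in MMP16 (chromosome 8, 88236219 to 88243687), which had 72.3, 134 and 123 CPM in DMSO and 5.42, 0.898 and 5.17 CPM in osimertinib DTP (-4.84, SE 0.45, adjusted p = 1.31e-08), and a locus without a gene on chromosome 6 (-4.73), followed by those of MIR146A and ATP10B (-4.61), RAPGEF1 (-4.59) and IFI44 (-4.52). All tested regions in each were lower. Of the loci with the most regions called lower, chosen after values were seen, that of FHL2 (chromosome 2, 105370646 to 105418524), the gene of a LIM domain protein, had 557, 669.8 and 717 CPM against 179.7, 112 and 161 CPM (-2.10, SE 0.23, adjusted p = 9.92e-08), with 34 of 40 regions lower. The locus of the imprinted noncoding genes MEG8 and SNORD114 on chromosome 14 (100972231 to 101005105) had 152, 283 and 225 CPM against 19.996, 6.54 and 19.7 CPM (-3.83, SE 0.35, adjusted p = 1.02e-08), with 22 of 22 regions lower. The locus of ADORA2B, an adenosine receptor, on chromosome 17 (-1.79, adjusted p = 1.33e-06) had 33 of 39 regions lower. Of the loci with the most regions called higher, that of NNMT, a methyltransferase that uses nicotinamide, had 278, 118 and 84.7 CPM against 622, 360.4 and 461 CPM (1.59, adjusted p = 0.000133) with 24 of 33 regions higher, and that of BCAM, a laminin receptor, had 49.96, 54.8 and 71.6 CPM against 155, 315 and 312 CPM (2.15, adjusted p = 8.9e-07) with 21 of 24. This was not as even in every such locus: that of TGFB2 had 42 of 93 tested regions higher and 0 lower, and its call (0.76, adjusted p = 0.00592) was lost without osimertinib DTP replicate 3 (0.49, adjusted p = 0.0698).

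Promoter and distal sums of 1 gene could be called in opposite directions. TMEM86A, the gene of a membrane protein, had 31.7, 30.1 and 31.6 CPM at its promoter in DMSO and 173, 108 and 183 CPM in osimertinib DTP (2.31, SE 0.22, adjusted p = 0.00223), and in its distal sum 21.9, 31.2 and 49.6 CPM against 7.07, 3.25 and 3.77 CPM (-2.85, SE 0.46, adjusted p = 0.00038). EXOSC7, an exosome subunit, did likewise, with 3.47 at the promoter (adjusted p = 0.00314) and -2.51 in the distal sum (adjusted p = 0.000594). In the reverse pattern KIF14, a mitotic kinesin, had 68.3, 101 and 92.2 CPM at its promoter against 22.8, 23.7 and 16.3 CPM (-2.04, SE 0.24, adjusted p = 0.0027, lost with the region factors) and 1.25, 1.46 and 2.59 CPM in its distal sum against 7.07, 16.6 and 19.5 CPM (3.01, SE 0.53, adjusted p = 0.000612). At these 3 genes the libraries of the groups were separate in both sums.

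**Figure D5:**
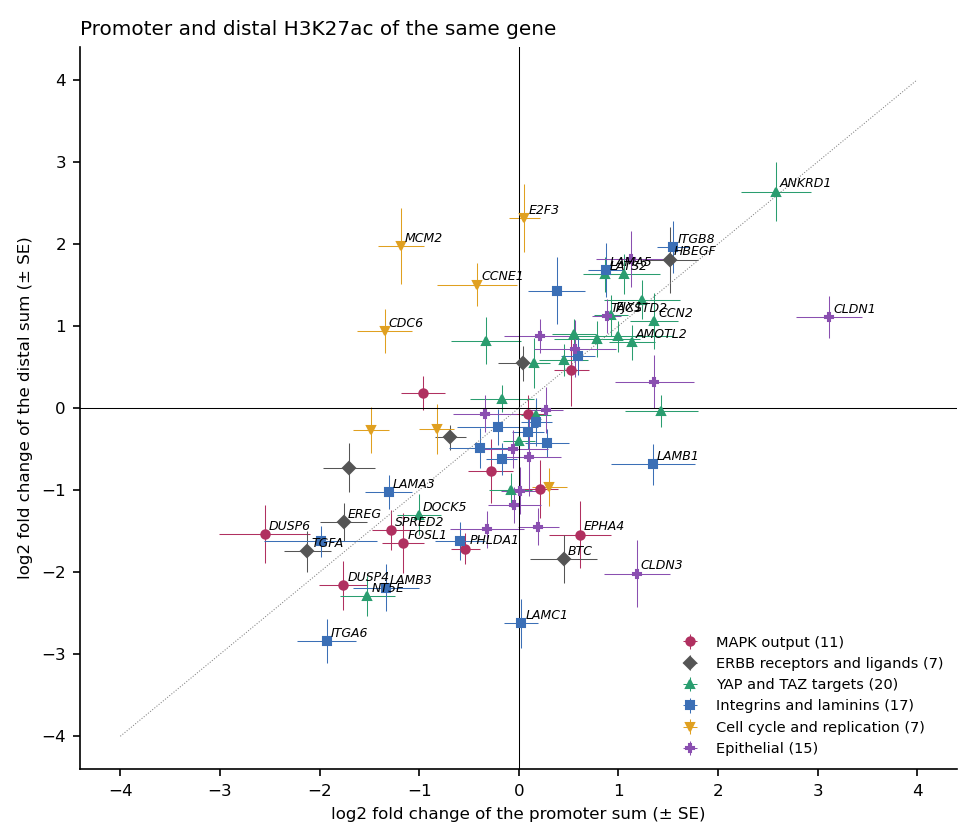
Log2 fold change of the distal sum against that of the promoter sum for the genes of 6 lists that have both, with bars of 1 SE and a dotted line where both are equal. ANKRD1 lies at 2.58 and 2.64, DUSP4 at -1.76 and -2.16, and MCM2 lies apart from the line at -1.18 for the promoter and 1.98 for the distal sum.

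The peaks that the authors called in each library alone followed the calls made on counts. Of the higher regions 14.7% to 22.0% overlapped a peak of a DMSO list and 77.2% to 88.5% a peak of an osimertinib DTP list. Of the lower regions 71.8% to 89.3% and 18.6% to 21.3% did. Peaks in all 3 persister lists and no DMSO list were found at 38.4% of the higher regions and at 1.45% of the regions not called, and the reverse held for 34.6% of the lower regions and 0.864% of those not called. The counts and the peaks come from the same reads. By annotation class, 21.1% of intronic regions were higher and 19.7% lower, 18.7% and 24.0% of distal intergenic regions, and 9.65% and 4.56% of promoter regions within 1 kb, where the order turned to 6.95% and 10.0% without osimertinib DTP replicate 2. By chromosome, the median log2 fold change of regions lay between -0.01 (chromosome 7) and 0.32 (chromosome 4).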

How the data were processed

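H3K27ac ChIP-seq libraries of H1975 cells (75 nt single-end reads) were used for 3 DMSO and 3 osimertinib DTP samples, grouped by their titles. The authors deposited raw read counts per 502 bp region, in a table of 169637 regions and an annotated table of 67387 of them with 15633 gene symbols, in build hg38. The submitters' processing notes name BWA 0.7.17, MACS2 2.2.6, featureCounts 2.0.0 and ChIPseeker 1.29.1. Duplicate handling is not given in the sources used here. The largest count was 1129 in the 6 libraries, near the 1152 that 1 read per position and strand would allow. The authors also deposited 1 peak list per library, in which a peak has a fold enrichment (a ratio) and −log10 values of p and q. The lists served for overlap with regions (1 bp or more) only. The list of osimertinib DTP replicate 3 carries another line's number in its own name (H1875), and it matched its own count column best (r = 0.701 across regions).

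Counts were summed by the deposited gene symbol and annotation class, or over stitched loci, and each kind of sum was fitted on the 6 libraries alone with edgeR 4.0.16 in R 4.3.3 (filterByExpr with a minimum count of 10, TMM, robust quasi-likelihood fit, two-sided test, Benjamini-Hochberg over all features of that kind, threshold 0.05). The code was tested on simulated data. The members and the 30 gene lists were chosen with earlier results of these data known. Named genes are, of called genes with 5 or more regions, at least median CPM and separate groups, the 12 with the largest rise and the 12 with the largest fall; up to 4 called members each way of each list; EGFR, MYC and the other ERBB receptors; and up to 5 genes each way called in opposite directions at promoter and distal sums. Genes outside this rule are marked in the text as named after their values were seen. Of called stitched loci with 5 or more regions and separate groups 8 were chosen each way (1 is not reported here), and promoter sequence was read for up to 3 genes each way with the smallest p on the promoter sum, of which SPRY4 and PIK3IP1 are shown, and for the cell cycle genes named as lower, a set added after the data were seen. Samples of the same replicate number deviated together from their group means (r = 0.340, 0.369 and 0.349, against -0.35 to 0.064 for other numbers), so the numbers were taken to pair the samples and a fit with the replicate as a block was compared. Alternatives were no TMM, DESeq2 1.42.0, a loess offset, no filter, all 9 H3K27ac libraries, a threshold of 0.01, other sums and gaps, and each library left out. Saturation-corrected counts and the region factors were chosen after seeing the data. No genome was used for coordinates other than those of the deposited table and of the RefSeq promoter windows.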

Additional observations from a re-analysis of the deposited data

How the results depend on the processing

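With all 9 H3K27ac libraries in the fit fewer features were called: 8814 regions higher and 8107 lower, 807 and 949 gene sums, 344 and 412 promoter sums, 1293 lower distal sums, and 1739 and 1785 stitched loci. With a library left out the counts ran from 12193 to 23599 higher and 12377 to 20287 lower regions, 741 to 2144 and 973 to 2220 gene sums, and 196 to 967 and 300 to 1054 promoter sums. At an adjusted p under 0.01 there were 12322 and 11503 regions, 740 and 936 gene sums, and 233 and 318 promoter sums. With the region factors 1042 gene sums were lower, and 423 promoter sums were higher and 169 lower. Limited to the region with the highest total or to regions within 10 kb, 1070 and 1106 gene sums were higher. Of these counts with a library left out, the highest came without osimertinib DTP replicate 2 (for lower gene sums, replicate 3) and the lowest without DMSO replicate 2 or 3. The causes were not tested.

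With the replicate as a block 26073 regions were higher and 24823 lower, 2010 and 2169 gene sums, 1035 and 1053 promoter sums, 2327 and 2317 distal sums, and 4335 and 4137 stitched loci. No count moved by over 1.5 times and no named call was lost under the pairing.

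Most of the values that changed sign were not called, but the called gene sums of ETV5 (-0.88), BTC (-1.12) and CCNE1 (1.00) changed sign too, where fewer of their regions were used. With the region with the highest total in place of the sum, ETV5 was at 0.0601, BTC at 0.50, ERBB3 at -0.18, YAP1 at 0.26 and TEAD1 at -0.13. Within 10 kb BTC was at 0.49 and CCNE1 at -0.37. With the region factors YAP1 was at 0.0295 and the promoter sums of CCNE1 and CDH1 were at 0.15 and 0.37. With a library left out ERBB3 ran from -0.21 to 0.57, YAP1 from -0.33 to 0.00673, TEAD1 from -0.00597 to 0.28, CDKN1A from -0.0555 to 0.24 and the CDH1 promoter from -0.26 to 0.15, and ERBB3 was at -0.00148 with the replicate block. Each value for a gene or locus was compared with each alternative setting in turn. Of these comparisons 2557 kept the direction and the side of the threshold, 68 lost the call, 11 gained one and 19 changed sign. Over all genes that the rule named, 169 gene sums were called, of which 95 kept the call with each library left out and 74 lost it without DMSO replicate 2. For promoter sums 48 of 96 kept it, and for distal sums 119 of 133. How the depth of 8839536 to 10463351 counts limits genes with few regions was not tested.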
